A study of Mus musculus with 4 samples.

Results

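The genes described are 6 members of the mouse *Hoxc* cluster in this single-cell series: *Hoxc4*, *Hoxc5*, *Hoxc6*, *Hoxc8*, *Hoxc9*, and *Hoxc10*, out of 27612 genes named in the tables. They were chosen by name, and a cell counted as capturing a gene when it held at least 1 read of it. The cells came from 4 lines labelled as neural stem cell (NSC) lines, each derived from epiblast stem cells (EpiSCs) of strain 129/Sv and each sequenced as 1 library, so that differences between lines include differences between libraries and no test between lines was possible. All lines were kept in EGF and FGF2, each at 10 ng/ml. XN4 and XN1 also received XAV939, an antagonist of Wnt signaling, at 10 µM, CN4 received CHIR99021, an agonist of Wnt signaling, at 2 µM, and KN1 received neither. Each agent combination other than that with XAV939 was represented by a single line. According to the paper, XN1 and XN4 were made with XAV939 of different suppliers, and that used for XN1 formed precipitates. The paper holds that these lowered its effective concentration.

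Hox genes encode homeodomain transcription factors and lie in 4 clusters, *Hoxa* to *Hoxd*. Their order along the chromosome follows the order of their anterior expression limits along the neural tube, and Wnt signaling is among the inputs that activate more posterior members. In the spinal cord, *Hoxc4* and *Hoxc5* belong to the cervical level, *Hoxc6* and *Hoxc8* to the brachial level of the forelimb, *Hoxc9* to the thoracic level, and *Hoxc10* to the lumbar level.

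Before the genes are described, the libraries need a remark. The labelled cell type was checked against 10 neural progenitor markers. *Sox2*, which defines neural progenitors, was captured in 85.9% of CN4, 63.5% of XN1, 13.9% of KN1, and 0.561% of XN4 cells. The XN4 library went against its label, with the collagen transcript *Col3a1* in 97.7% of cells and no read of *Fabp7*, so XN4 is used below as the name of a library and not of a cell type. Of the 10 markers, 10 exceeded 5% of cells in CN4, 9 in KN1, 8 in XN1, and 4 in XN4. The tables of all reads held 93096507 to 180825519 reads per line, and KN1 had 27563145 reads in its normalized values. KN1 gave few genes per read, with a median of 833 genes per cell against 2824 in the comparable CN4 table. Cell labels recurred between libraries in 37 to 320 cases per pair of lines. Without all cells of recurring labels, 64.1% of 17584 CN4 cells still captured a *Hoxc* gene.

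On chromosome 15 of GRCm38, all 6 genes are transcribed from the plus strand, in the order *Hoxc10* (102966796 to 102971893), *Hoxc9* (102976439 to 102985099), *Hoxc8* (102990607 to 102994111), *Hoxc6* (102998257 to 103011881), *Hoxc5*, and *Hoxc4* (103018934 to 103036852). *Hoxc5* is annotated from 102967443 to 103017429 because a second transcript starts within *Hoxc10*, and it therefore spans *Hoxc10*, *Hoxc9*, *Hoxc8*, and *Hoxc6*. Its exons share 166 bases with *Hoxc10* and none with the others. As intronic reads were counted, the assignment of reads between *Hoxc5* and these 4 genes is uncertain.

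The proteins differ in function through the homeodomain and its surroundings. The 180 bases of the homeobox, each within a single exon, are shown for the most anterior member, the most abundantly captured member, and the 2 most posterior members, as they stand in the coding exons of the GENCODE annotation. Capitals mark the 51 bases, from base 124 to base 174, that encode the recognition helix, which contacts DNA.
Hoxc4, chr15:103035663-103035842, plus strand: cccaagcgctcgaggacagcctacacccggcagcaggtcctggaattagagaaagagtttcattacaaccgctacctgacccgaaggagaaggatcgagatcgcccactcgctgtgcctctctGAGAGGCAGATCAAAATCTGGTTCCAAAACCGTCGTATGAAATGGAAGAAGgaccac
Hoxc8, chr15:102992571-102992750, plus strand: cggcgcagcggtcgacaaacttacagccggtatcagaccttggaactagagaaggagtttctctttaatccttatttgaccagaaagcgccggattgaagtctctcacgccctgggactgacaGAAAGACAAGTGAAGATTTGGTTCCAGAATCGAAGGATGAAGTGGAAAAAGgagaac
Hoxc9, chr15:102983930-102984109, plus strand: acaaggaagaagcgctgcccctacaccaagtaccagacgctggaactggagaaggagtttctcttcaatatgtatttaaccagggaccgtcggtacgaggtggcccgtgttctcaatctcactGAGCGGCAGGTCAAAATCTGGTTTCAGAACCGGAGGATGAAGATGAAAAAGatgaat
Hoxc10, chr15:102970848-102971027, plus strand: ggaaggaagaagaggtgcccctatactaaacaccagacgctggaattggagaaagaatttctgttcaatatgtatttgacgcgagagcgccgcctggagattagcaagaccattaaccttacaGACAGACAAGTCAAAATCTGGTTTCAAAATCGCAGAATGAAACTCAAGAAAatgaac
Over the homeobox, *Hoxc9* and *Hoxc10* shared 129 of 180 bases, or 71.7%, and *Hoxc4* and *Hoxc10* shared 107, or 59.4%. The highest identity among the 15 pairs, 77.8%, was that of *Hoxc5* and *Hoxc6*. Reads were 150 bases long. With 1 transcript taken per gene, which leaves out the *Hoxc5* transcript that overlaps *Hoxc10*, the longest exact run a member shared with any of the other 37 Hox transcripts was 50 bases, between *Hoxc9* and *Hoxb9*, and for *Hoxc8* it was 26 bases, with *Hoxb8*.

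The first comparison concerned the level of the *Hoxc* genes in each line, as the lines were derived under different levels of Wnt signaling. *Hoxc* transcripts were abundant in CN4 and rare among the reads of the remaining lines. In CN4, 11636 of 18157 cells, or 64.1% (exact 95% interval, 63.4% to 64.8%), held a read of at least 1 *Hoxc* gene. In KN1, where *Hoxc8* was the single member listed, 13 of 3975 cells held a *Hoxc8* read, or 0.327% (0.174% to 0.559%). In XN1, with 5 members listed, the count was 17 of 14452, or 0.118% (0.0685% to 0.188%). In the library labelled XN4, with 4 members listed, it was 11 of 8741, or 0.126% (0.0628% to 0.225%). These intervals, and all others given here, cover counting error only. The intervals of CN4 and the remaining lines lay far apart, while those of XN1, XN4, and KN1 overlapped. Without cells of recurring labels, the intervals of KN1 (0.164% to 0.554%) and XN1 (0.0497% to 0.159%) no longer overlapped. In reads per 1000000 reads (RPM), the summed level was 2.32 (1.79 to 2.97) in KN1, 0.183 (0.106 to 0.292) in XN1, and 0.0784 (0.0391 to 0.14) in XN4, where the KN1 total leaves out ribosomal protein and mitochondrial genes. The KN1 interval treats reads as independent although they fell in 13 cells, and it is too narrow.

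*Hoxc8* was the member most often captured in CN4, in 8691 cells, or 47.9% (47.1% to 48.6%). *Hoxc6* followed with 4881 cells, or 26.9% (26.2% to 27.5%). *Hoxc5* was captured in 17.4% (16.9% to 18.0%) and *Hoxc4* in 16.2% (15.7% to 16.8%) of cells, with intervals that did not overlap. *Hoxc9* was found in 2138 cells, or 11.8% (11.3% to 12.3%), and *Hoxc10* in 95 cells, or 0.523% (0.424% to 0.639%). Capture thus peaked at paralog group 8 and was lower on both sides of it.

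Levels gave another order at the low end than cells did. In RPM per kilobase of exon, the CN4 level was 80.7 (79.9 to 81.5) for *Hoxc8*, 20.8 (20.4 to 21.3) for *Hoxc6*, and 10.59 (10.3 to 10.9) for *Hoxc9*. The corresponding levels were 9.56 (9.28 to 9.84) for *Hoxc4*, 8.54 (8.30 to 8.78) for *Hoxc5*, and 0.353 (0.293 to 0.422) for *Hoxc10*. On this scale *Hoxc9* stood above *Hoxc4* and *Hoxc5*, although fewer cells captured it. As intronic reads were counted, exon length is an uncertain divisor, and this order is not read as one of transcript level. In RPM without regard to length, *Hoxc9* (25.7) lay between *Hoxc4* (24.5) and *Hoxc5* (26.4). *Hoxc8* alone supplied 64.2% of the 64379 *Hoxc* reads of CN4.

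The genes also differed in the reads found per capturing cell. *Hoxc8* had a mean of 4.75 reads in the cells that captured it, with a median of 3, a 90th percentile of 10, and a maximum of 50. *Hoxc9* had a mean of 2.18 and a maximum of 20, and *Hoxc6* a mean of 1.86 and a maximum of 13. The means of *Hoxc4* and *Hoxc5* were both 1.51, and that of *Hoxc10* was 1.28. *Hoxb8*, the paralog of *Hoxc8* in the *Hoxb* cluster, was captured in more CN4 cells (74.8%) but with fewer reads per capturing cell, a mean of 3.63 and a maximum of 28. *Hoxc8* reads were thus concentrated in fewer cells than those of *Hoxb8*.

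The more 5′ genes of the cluster gave little or no signal in CN4. *Hoxc13* was found in 15 CN4 cells, or 0.0826% (0.0462% to 0.136%), and *Hoxc11* and *Hoxc12* had no column in the CN4 table. *Hotair*, a noncoding RNA transcribed from the opposite strand between *Hoxc12* and *Hoxc11*, was listed only in XN1, with 2 reads. Of the 7 noncoding genes annotated between *Hoxc13* and *Hoxc4*, *Hotair* was the single gene with a column in any table. The microRNA genes *Mir196a-2* and *Mir615* lie within this interval and were among those without a column. Of their 4 mature products, the one with the most seed sites in a member is given, with the seed, bases 2 to 8, in capitals.
mmu-miR-196a-5p, chr15:102973365-102973386, plus strand: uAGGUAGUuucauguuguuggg
The complement of this seed occurred 2 times in the annotated 3′ part of the *Hoxc8* transcript behind the coding region and in no such part of the 5 remaining members. At least 1 occurrence was present in 6.10% of 21022 genes. The mature sequence is that of RefSeq on GRCm38.p6. Of the Mir615 products, miR-615-5p had 1 such occurrence, in *Hoxc6*, and 6.58% of genes had one. Neither these microRNAs nor their action was measured.

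In KN1, *Hoxc8* was the single member listed, and the other 5 had no column in its normalized table, whose rarest gene was found in 7 cells. The 64 *Hoxc8* reads of KN1 fell in 13 cells. The counts per cell were 23, 13, and 8 in the top 3 cells, 4 in each of 3 cells, 2 in 1 cell, and 1 in each of 6 cells. The top 3 cells held 68.8% of the reads. Of the 13 cells, 11 also held reads of another Hox gene, or 84.6%, against 62.9% of all KN1 cells. The cells with *Hoxc8* were deeper, with a median of 8520 reads against 5862, and the part of depth in this difference was not tested. *Sox2* was captured in 1 of the 13, and in 13.9% of all KN1 cells.

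In XN1 and the library labelled XN4, every captured *Hoxc* gene was present as a single read, and no cell had reads of more than 1 *Hoxc* gene. The 17 reads of XN1 were 3 of *Hoxc4*, 4 of *Hoxc5*, 3 of *Hoxc6*, 4 of *Hoxc8*, and 3 of *Hoxc9*. The 11 reads of XN4 were 1 of *Hoxc4*, 2 of *Hoxc5*, 7 of *Hoxc8*, and 1 of *Hoxc9*. *Hoxc10* had no column in either table. Of the 17 XN1 cells, 4 carried a label that also occurred in CN4. All 4 CN4 cells of those labels held *Hoxc* reads, 3 of them reads of the same gene. Of all 14452 XN1 cells, 320 shared a label with CN4. The part of such cells in the XN1 reads was not tested further. Without cells of recurring labels, the XN1 fraction was 0.0933% (0.0497% to 0.159%). None of the 11 XN4 cells shared a label with CN4. Of the 13 KN1 cells with *Hoxc8*, 1 shared a label with a CN4 cell that held *Hoxc* reads, but not of *Hoxc8*.

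The levels summed over cells were then compared. In the normalized tables, *Hoxc8* reached 297 RPM in CN4 and 2.32 in KN1, a ratio of 128 (99.9 to 166). Genes at least 2-fold higher in CN4 made up 21.4% of 12126 genes captured in at least 1% of cells of either line, and the median ratio over them was 1.06. The 6 genes summed gave 458 RPM in CN4 against 2.32 in KN1, a ratio of 197 (154 to 256), in which 5 of the genes had no KN1 value. The intervals of both ratios treat reads as independent and are too narrow, as 3 cells held 68.8% of the KN1 reads. In the tables of all reads, the ratio of CN4 to XN1 was 5318 (2077 to 19520) for *Hoxc8*, 1558 (533 to 7556) for *Hoxc6*, 798 (273 to 3873) for *Hoxc9*, 762 (260 to 3695) for *Hoxc4*, and 614 (240 to 2254) for *Hoxc5*. At least 2-fold higher in CN4 were 9.45% of 12759 genes against XN1 and 18.5% of 13640 against XN4. As the members passed the 1% filter through CN4 alone, their being higher there was set by the filter, and nothing is read from these shares. *Hoxc10* was captured in too few cells to enter. For *Hoxc8*, the median reads per capturing cell were 3 in the CN4 table of all reads and 2 in the 13 cells of the KN1 normalized table, and the means were 4.75 and 4.92, the latter carried by the 3 KN1 cells with 68.8% of the reads. The fractions of capturing cells were 47.9% and 0.327%.

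Depth differed between the lines, so the comparison was repeated at equal numbers of reads per cell. When the cells present in the normalized tables were thinned to 3200 reads, a *Hoxc* gene was captured in 50.9% of CN4, 0.260% of KN1 (*Hoxc8* alone), 0.0526% of XN1, and 0.0286% of XN4 cells. Cells with fewer reads were left out, namely 290 of CN4, 579 of KN1, 776 of XN1, and 543 of XN4. At 800 reads, the values were 24.7% for CN4, 0.111% for KN1, 0.0105% for XN1, and 0.00617% for XN4. The XN1 values rest on at most 4 cells with a *Hoxc* read and the XN4 values on at most 3, so their order is not read. Even at 200 reads, with a median of 185 genes per cell, 8.19% of CN4 cells captured a *Hoxc* gene. This was above the 0.327% of KN1 at its full depth and median of 833 genes. *Hoxc8* alone was captured in 37.1% of CN4 cells at 3200 reads and in 5.36% at 200 reads.

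**Figure D1:**
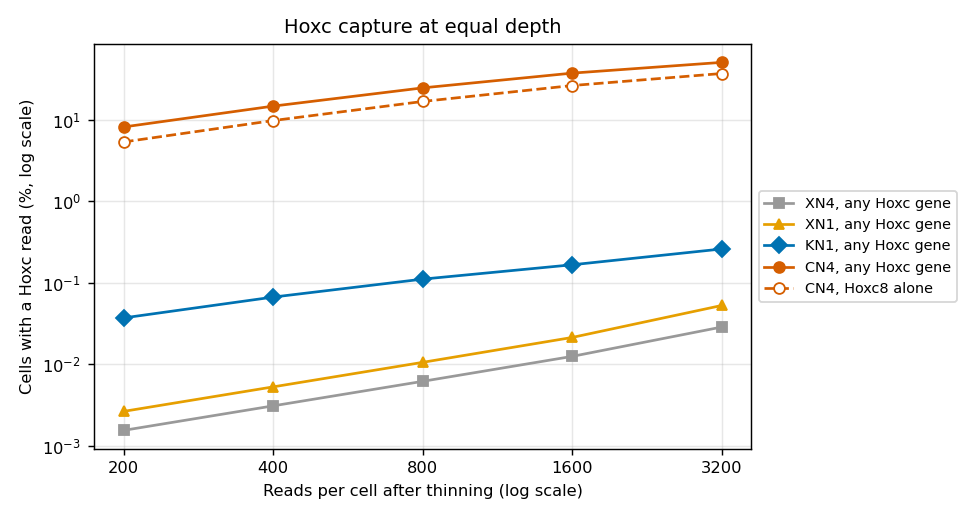
Percentage of cells with a read of any *Hoxc* gene (filled markers) in the 4 lines, or of *Hoxc8* alone in CN4 (open markers), against the reads per cell after thinning, both on log axes. The CN4 values run from 8.19% at 200 reads to 50.9% at 3200 reads and stay above those of KN1, XN1, and XN4 at every depth.

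Within CN4, capture rose with depth but did not approach all cells. When the cells were split into 5 groups of equal size by total reads, the medians ran from 4923 reads in the lowest group to 15878 in the highest. Between these groups, capture of *Hoxc8* rose from 32.1% to 64.5%. Between the same groups, capture of *Hoxc6* rose from 16.5% to 40.0%, of *Hoxc4* from 8.78% to 25.4%, and of *Hoxc9* from 5.51% to 19.1%. *Hoxb8* rose from 51.8% to 92.3%, *Hoxb9* from 40.97% to 89.4%, and *Sox2* from 67.8% to 96.9%. In the deepest group, therefore, *Hoxc8* was still captured in fewer cells than *Hoxb8* or *Hoxb9*.

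The *Hoxc* cluster was then set beside the other clusters, to see which Hox genes each line had. In KN1, genes of paralog groups 4 to 10 were captured in 36.7% of cells for *Hoxa* and 36.9% for *Hoxb*, but in 3.19% for *Hoxd* and 0.327% for *Hoxc8*, the listed *Hoxc* gene. The KN1 cells had *Hoxb8* in 15.8% and *Hoxb9* in 5.33% of cells, the paralogs of *Hoxc8* and *Hoxc9*. In XN1, *Hoxa* genes were captured in 37.1% of cells, mostly *Hoxa5* (27.8%) and *Hoxa4* (10.3%), whereas *Hoxb* genes were captured in 0.201%, *Hoxc* in 0.118%, and *Hoxd* in 0.0415%. The library labelled XN4 had *Hoxd8* in 18.8% of cells, with *Hoxc8* in 0.0801% and *Hoxb8* in 0.0686%. In CN4, all 4 clusters were captured, in 91.7% of cells for *Hoxb*, 82.4% for *Hoxa*, 64.1% for *Hoxc*, and 27.6% for *Hoxd*. Counted per cluster, the listed *Hoxc* genes exceeded 1% of cells in CN4, and *Hoxa* genes did so in XN1, KN1, and CN4.

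**Figure D2:**
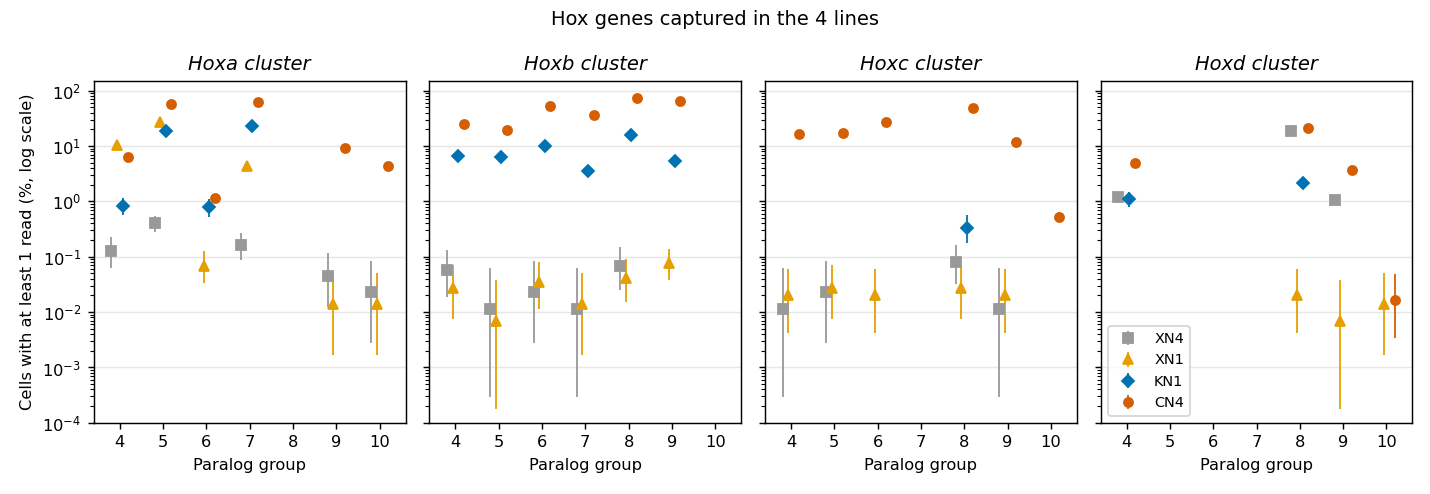
Percentage of cells with at least 1 read (log axis) of each Hox gene of paralog groups 4 to 10, in the 4 lines, with exact 95% intervals. Genes without a column and genes with no read are not drawn. In the *Hoxc* panel, the CN4 values (0.523% to 47.9%) lie above every value of the other lines, while in the *Hoxa* and *Hoxb* panels KN1 also has values above 1%.

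By the Euclidean distance of log2(RPM + 1) over the 4 normalized tables, *Hoxa9* was nearest to *Hoxc4* (0.50), *Hoxc5* (0.67), and *Hoxc9* (0.53). The protease gene *Ctsc* was nearest to *Hoxc6* (0.088), and the signaling ligand gene *Bmp5* was nearest to *Hoxc8* (1.21). *Bmp5* had 175 RPM in CN4, 1.09 in KN1, 0.578 in XN4, and no listing in XN1. The next 2 genes were *Ctsc* and *Zic4* for *Hoxc4*, *Hoxc5*, and *Hoxc9* and *Id4* and *Pax3* for *Hoxc6*. For *Hoxc8*, *Sox1* came second. A gene without a column in a table was entered as 0 there, so that for the members other than *Hoxc8* the distance to *Hoxa9* and *Ctsc* is the difference in CN4 alone. Pearson correlation could not order the genes for these members, as genes listed in CN4 alone all have a correlation of 1 with them. For *Hoxc8*, the 3 genes of highest Pearson correlation shared none with the 3 nearest by distance, so that *Bmp5* depends on the measure.

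The second question was whether single CN4 cells held several *Hoxc* transcripts at once, and whether they did so more often than their depth alone would give. For this, the expected number of cells was computed from the capture fractions of each gene within 20 groups of cells of like total reads. No *Hoxc* gene was captured in 6521 cells, where 4635 were expected, a ratio of 1.41 (1.37 to 1.44). A single *Hoxc* gene was captured in 4988 cells where 7227 were expected (0.690; 0.671 to 0.710), and 2 genes in 3829 where 4512 were expected (0.849; 0.822 to 0.876). In contrast, 3 genes were captured in 2090 cells against 1492 expected (1.401; 1.34 to 1.46), 4 genes in 649 against 269 (2.41; 2.23 to 2.60), and 5 genes in 78 against 22.0 (3.55; 2.81 to 4.43). All 6 genes were captured in 2 cells. Cells with none and cells with many *Hoxc* genes were therefore both more frequent than expected, and cells with few were less frequent. In sum, 2819 cells had 3 or more genes, against 1783 expected, a ratio of 1.58 (1.52 to 1.64). The ratio for 2 or more genes was 1.06 (1.03 to 1.08), as the shortage of cells with exactly 2 offset most of the excess. In KN1, where 1 member was listed, no such ratio could be formed.

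**Figure D3:**
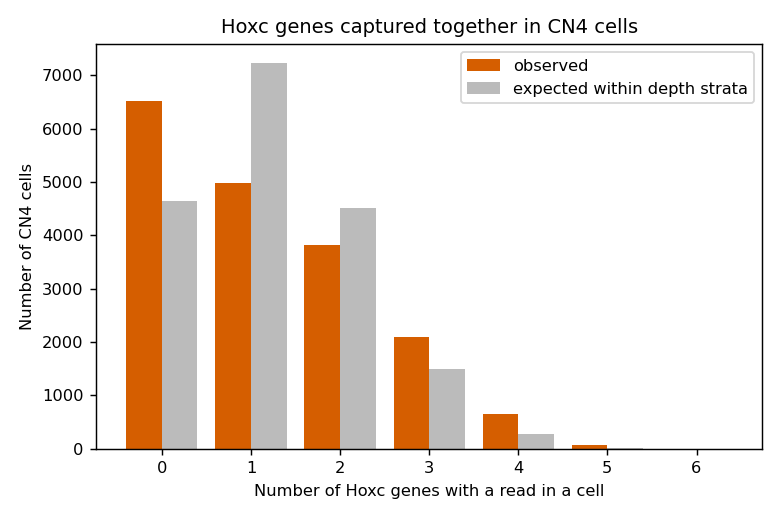
Number of CN4 cells with reads of 0 to 6 *Hoxc* genes. Observed numbers exceed the numbers expected within groups of like depth at 0 genes (6521 against 4635) and at 3 to 5 genes, and fall below them at 1 and 2 genes.

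The pairs showed which members contributed. Of the 10 pairs among *Hoxc5*, *Hoxc6*, *Hoxc8*, *Hoxc9*, and *Hoxc10*, 9 were captured together more often than expected, with whole intervals above 1. Whole intervals above 1 were also found for 22 of the 28 pairs within *Hoxb* and for 88 of the 180 Hox pairs, described below, that were not both *Hoxc*. *Hoxc8* and *Hoxc9* were captured together in 1896 cells where 1122 were expected, a ratio of 1.69 (1.62 to 1.77). Of all *Hoxc9* cells, 88.7% also held *Hoxc8*, whereas 21.8% of *Hoxc8* cells held *Hoxc9*. The ratio was 1.46 (1.41 to 1.51) for *Hoxc6* and *Hoxc8*, 1.505 (1.41 to 1.60) for *Hoxc6* and *Hoxc9*, and 3.31 (2.43 to 4.40) for *Hoxc9* and *Hoxc10*, the last resting on 47 cells and falling to 2.18 with at least 2 reads of each gene. *Hoxc8* was present in 84.2% of the 95 *Hoxc10* cells. The pairs of *Hoxc5* with *Hoxc6* (1.46), *Hoxc8* (1.503), and *Hoxc9* (1.63) had like values, but these genes overlap in the annotation.

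*Hoxc4*, the most anterior member, did not follow the others. It was captured with *Hoxc8* in 1521 cells where 1528 were expected, a ratio of 0.996 (0.946 to 1.05). With *Hoxc9*, the ratio was 0.782 (0.697 to 0.874), below 1 over its whole interval, but it was 0.935 with at least 2 reads of each gene. With its neighbors *Hoxc5* and *Hoxc6*, *Hoxc4* had ratios of 1.16 (1.07 to 1.25) and 1.13 (1.06 to 1.205). The ratio was thus higher with the neighbors, whose intervals overlapped, than with *Hoxc9*, and that of *Hoxc10*, 0.692 (0.368 to 1.18), was too imprecise to place.

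Pairs within *Hoxa* and *Hoxb* had lower median ratios in CN4 than pairs within *Hoxc*. At the limit of 5% of cells used here, *Hoxd8* alone of its cluster entered, so *Hoxd* formed no pair, and *Hoxa10* did not enter. Among the 20 Hox genes captured in at least 5% of CN4 cells, the 10 pairs within *Hoxc* had a median ratio of 1.46, and 6 of them exceeded 1.2, all without *Hoxc4*. The 15 pairs within *Hoxa* had a median of 1.06 and a range of 0.912 to 1.21, and the 28 pairs within *Hoxb* had a median of 1.06 and a range of 0.984 to 1.13. A gene captured in most cells limits the ratio of its pairs. Among genes under 50% of cells, a restriction chosen after the data were seen, the median was 1.06 for 6 *Hoxa* pairs, 1.06 for 10 *Hoxb* pairs, and 1.46 for the 10 *Hoxc* pairs. Over the 180 pairs that were not both *Hoxc*, the median was 1.05, and 6 exceeded 1.2. The 4 of these that included a *Hoxc* gene all paired it with *Hoxa9*.

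**Figure D4:**
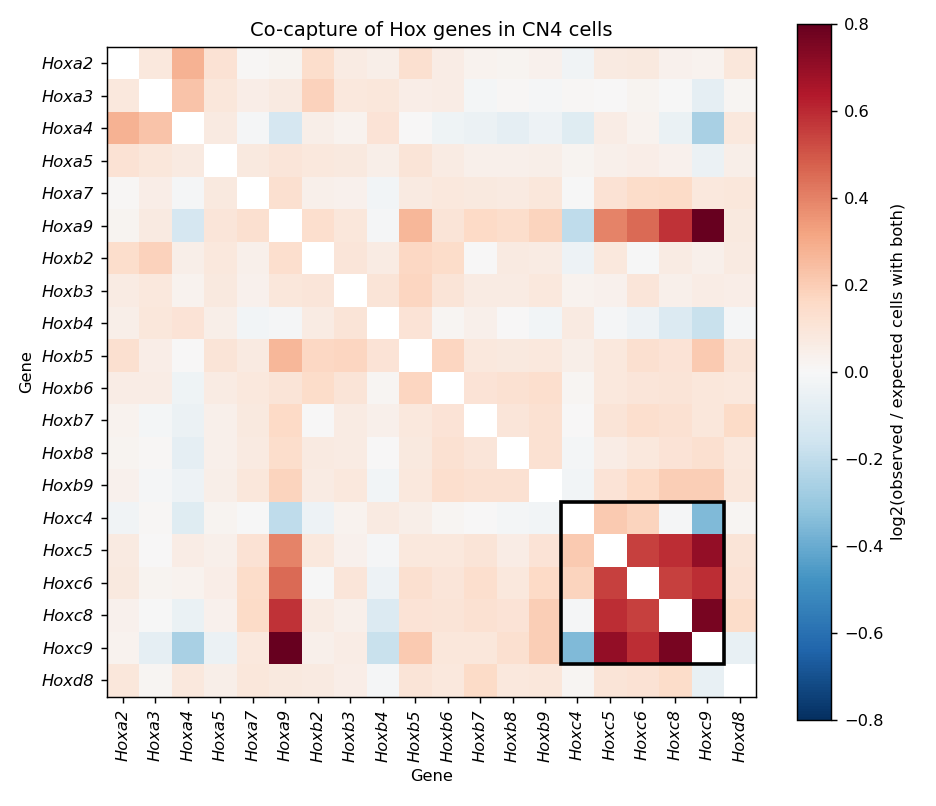
Log2 ratio of observed to expected CN4 cells with both genes, for the 190 pairs of 20 Hox genes, with the 10 *Hoxc* pairs framed. Pairs among *Hoxc5*, *Hoxc6*, *Hoxc8*, and *Hoxc9* are the densest block (ratios of 1.46 to 1.69), *Hoxa9* has like ratios with the same genes, and *Hoxc4* has ratios from 0.782 to 1.16.

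Genes of other clusters differed in the *Hoxc* members they were captured with. *Hoxa9*, a posterior gene of the *Hoxa* cluster, had ratios of 1.74 (1.58 to 1.92) with *Hoxc9*, 1.49 (1.41 to 1.58) with *Hoxc8*, 1.37 (1.27 to 1.47) with *Hoxc6*, 1.32 (1.198 to 1.45) with *Hoxc5*, and 0.87 (0.77 to 0.979) with *Hoxc4*. *Hoxc8* was captured in 78.3% of the 1702 *Hoxa9* cells and in 44.7% of the others. *Hoxb9* had ratios of 1.14 (1.09 to 1.198) with *Hoxc9* and 0.986 (0.944 to 1.03) with *Hoxc4*. The anterior gene *Hoxb4* showed the opposite order, with 0.883 (0.809 to 0.961) for *Hoxc9*, 0.926 (0.888 to 0.966) for *Hoxc8*, and 1.05 (0.98 to 1.121) for *Hoxc4*. *Hoxa5* was near 1 with all 5 genes, between 0.966 with *Hoxc9* and 1.04 with *Hoxc6*.

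The other partner transcripts set for comparison differed in their relation to the members. *Sox2* was captured together with each of the 5 frequent members at close to the expected frequency, with ratios of 1.00 to 1.02. As *Sox2* was in 85.9% of cells, its ratio could rise little above 1. *Sox10*, a factor of oligodendrocyte precursors and neural crest, was found in 374 CN4 cells, of which 25.9% held *Hoxc8*, against 48.3% of the cells without *Sox10*. The cells with *Sox10* had fewer reads, a median of 6846 against 9227. At like depth the ratio was 0.603 (0.489 to 0.735) for *Hoxc8*, 0.588 (0.439 to 0.772) for *Hoxc6*, 0.594 (0.409 to 0.834) for *Hoxc5*, 0.593 (0.372 to 0.898) for *Hoxc9*, and 0.924 (0.681 to 1.22) for *Hoxc4*. *Nkx2-2*, of the ventral neural tube, had ratios of 0.823 to 0.886 with the same 4 genes and 1.03 (0.938 to 1.14) with *Hoxc4*. *Pax6* had 1.16 (1.08 to 1.24) with *Hoxc4* and 0.94 (0.862 to 1.02) with *Hoxc9*. The proliferation marker *Mki67* had 1.10 (1.05 to 1.14) with *Hoxc4* and intervals that included 1 with the other 4 genes.

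Of the 10 neural progenitor markers, all captured in over 5% of CN4 cells, 1 had a whole interval above 1 and 2 had whole intervals below 1 with *Hoxc8*, within a range of 0.914 to 1.05. *Sox3* was below 1 with *Hoxc8* (0.914; 0.886 to 0.943) and *Hoxc9* (0.88; 0.825 to 0.937). *Hes1* went the other way, above 1 with *Hoxc8* (1.049; 1.019 to 1.079) and *Hoxc9* (1.066; 1.007 to 1.127). *Hes1* was also above 1 with *Hoxc5* (1.061; 1.012 to 1.111) and *Hoxc6* (1.067; 1.027 to 1.107). The Notch target *Hes5* was above 1 with *Hoxc4* (1.19; 1.11 to 1.27) and below 1 with *Hoxc9* (0.824; 0.749 to 0.905). The 2 oligodendrocyte precursor markers over 5% were *Olig1* and *Olig2*, with ratios of 0.979 to 0.999 over the 5 genes, and were likewise in most cells. With *Hoxc8*, the 3 neuron markers over 5% had ratios of 0.978 to 0.998, the 4 astrocyte markers 0.947 to 1.01, and the 3 markers of dividing cells 0.989 to 0.99, and no whole interval lay to one side of 1. *Map2* (87.0%), *Slc1a3* (97.2%), and the markers of dividing cells (60.4% to 71.5%) were in most cells. For such genes the interval is too wide to show a small departure from 1. Of the 2 mesoderm or mesenchyme markers, 1 had a whole interval below 1 (range, 0.967 to 0.986), as had the single neural crest marker (0.932). No epiblast marker exceeded 5%. Among the markers under 5%, 3 had whole intervals above 1 with *Hoxc8*, namely *Aqp4* (1.37; 1.22 to 1.53) and *Gfap* (1.117; 1.01 to 1.23) of astrocytes and the neuron marker *Dcx* (1.24; 1.13 to 1.35). The other 4 neuron markers under 5% had 0.872 (*Elavl3*) to 1.16 (*Stmn2*), with intervals that included 1. Whole intervals below 1 included those of *Twist1* (0.475; 0.307 to 0.701), *Sox10*, *Col3a1* (0.795; 0.624 to 0.998), and *Pdgfra* (0.845; 0.722 to 0.983). With *Hoxc9*, *Aqp4* had 1.56 (1.27 to 1.91) and *Dcx* 1.56 (1.33 to 1.81), while the other 4 neuron markers under 5% had 0.693 (*Elavl3*) to 1.36 (*Stmn2*) and the other 5 astrocyte markers had 0.90 to 1.01 and intervals that included 1.

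Genes that regulate Hox clusters were examined next. In CN4, *Axin2*, a target of Wnt signaling, was captured in 38.8% of cells, against 8.02% in XN1, 2.01% in KN1, and 1.499% in XN4. In RPM, *Axin2* had 72.7 in CN4, 17.1 in KN1, 15.9 in XN1, and 1.95 in XN4. As the KN1 total alone leaves out ribosomal protein and mitochondrial genes, the order of KN1 and XN1 is not read. Within CN4, however, *Axin2* was not captured more often with any of the 5 genes, with ratios of 0.968 to 1.01. *Lef1* and *Sp5*, also on the regulator list, had the opposite order of CN4 and XN1 to that of *Axin2*. They were captured in more XN1 cells (5.42% and 3.90%) than CN4 cells (0.898% and 1.66%). In CN4, both had whole intervals below 1 with *Hoxc8*, at 0.705 (0.537 to 0.910) for *Lef1* and 0.802 (0.672 to 0.949) for *Sp5*. The caudal genes *Cdx1* and *Cdx4*, which activate posterior Hox genes in the embryo, were found in at most 0.0686% of cells where they were listed, *Cdx1* not being listed in KN1 and *Cdx4* in neither KN1 nor CN4. *Cdx2* had no column in any table. *Gdf11*, a signal for posterior Hox genes, was captured in 24.0% of CN4, 30.0% of XN1, 25.9% of XN4, and 2.74% of KN1 cells, but in RPM, with totals that differ as described for the summed level, its level was 35.5 in CN4 and 25.4 in KN1. Of the 8 regulators in over 5% of CN4 cells, none had a whole interval above 1 with *Hoxc8*, and 1, the retinoic acid receptor gene *Rarb*, was below 1 (0.902; 0.856 to 0.949). *Rarb* had 0.779 (0.697 to 0.867) with *Hoxc9* and 1.03 (0.949 to 1.116) with *Hoxc4*. The Polycomb genes *Ezh2*, *Suz12*, and *Eed* and the Trithorax gene *Kmt2a* were captured in all 4 lines, in 13.01% to 34.1% of KN1 cells and 21.8% to 73.7% of CN4 cells. In RPM, whose KN1 total is the smaller kind, the values of all 4 were higher in KN1 than in CN4. The KN1 and CN4 levels were 399 and 128 for *Kmt2a*, 412 and 303 for *Ezh2*, 128 and 116 for *Suz12*, and 78.2 and 32.2 for *Eed*. With the smaller total, the summed *Hoxc* level of CN4 rose from 356 to 454 RPM. As the totals differ between these lines, the differences of *Suz12* and *Ezh2* are therefore not read.

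Cofactors that bind DNA with Hox proteins were captured in all 4 lines. In CN4, *Pbx3* was found in 54.1%, *Meis1* in 46.3%, and *Meis2* in 45.0% of cells. Of the 6 cofactors over 5%, 1 had a whole interval above 1 with *Hoxc8* and 1, *Meis2*, had one below 1 (0.95; 0.92 to 0.98). With *Hoxc4*, 3 had whole intervals above 1 and 0 below. With *Hoxc9*, *Meis2* had 0.896 (0.839 to 0.955). The ratios of the 6 cofactors over 5% lay within 0.896 to 1.09 over the 5 members.

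All 8295 genes captured in at least 10% of CN4 cells were then scanned in the 2819 cells with 3 or more *Hoxc* genes, of which 95% had ratios between 0.903 and 1.122. Other than the members, the highest ratios belonged to *Hoxb5os*, a transcript of the *Hoxb* cluster (1.37; 1.27 to 1.49), *Lrrtm1* (1.37), *A2m* (1.34), *1500015O10Rik* (1.34), and *Htra1* (1.33). The lowest were those of *Bcas1*, a gene of early myelinating oligodendrocytes (0.598; 0.538 to 0.664), *Lhfpl3*, expressed in oligodendrocyte precursors (0.718; 0.656 to 0.784), *Xylt1* (0.735), *Ctnna3* (0.749), and *Chst11* (0.758). *Bcas1* was low with *Hoxc5*, *Hoxc6*, *Hoxc8*, and *Hoxc9*, with ratios of 0.684 to 0.735, and was 0.882 (0.808 to 0.961) with *Hoxc4*.

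**Figure D5:**
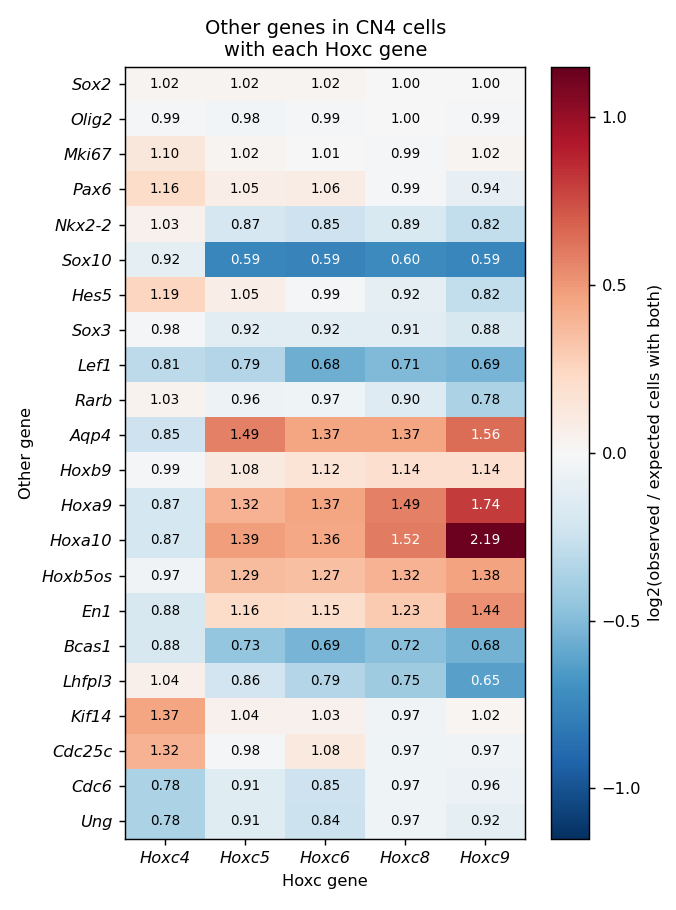
Ratio of observed to expected CN4 cells with both genes, printed in each field and colored on a log2 scale, for 22 genes (rows) and the 5 frequent *Hoxc* genes (columns). The last 9 rows, from *Hoxa10* to *Ung*, were chosen after their values were seen. *Olig2*, *Hes5*, *Sox3*, *Lef1*, *Rarb*, and *Aqp4* were picked from the marker and regulator lists, most other members of which are not drawn. *Sox10* has ratios of 0.588 to 0.603 with 4 members and 0.924 with *Hoxc4*, and *Hoxa9* and *Hoxa10* reach 1.74 and 2.19 with *Hoxc9*.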

How the data were processed

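For 4 NSC lines, with 1 BD Rhapsody library each, samples were grouped by line name in the labels. The authors deposited tables of read counts per gene and cell for 3 lines, XN4, XN1, and CN4 (per the file headers: BD Rhapsody WTA pipeline 1.12.1, GRCm38, GENCODE M19, intronic reads counted). These are reads, not molecular identifiers. The second kind of table, deposited for each of the 4 lines, holds natural log values of 1 plus the reads scaled to 10000 per cell, made with Seurat (4.3.0 in the submitters' processing notes), without ribosomal protein and mitochondrial genes. These were turned back into reads, 100% of them whole within 0.01. For KN1 only this table was used, and its pipeline settings are not given in the sources used here.

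Depth was 93096507 to 180825519 reads per line in the tables of all reads and 19271688 to 41539513 in the normalized tables. Fractions have exact Clopper-Pearson and read sums exact Poisson 95% intervals. Intervals of read sums and of their ratios treat reads as independent, and they are too narrow where several reads fell in 1 cell. Intervals of observed over expected cells are Poisson intervals of the observed number, which are too wide for genes captured in most cells. Ratios of a gene at under 3 reads used 3 reads as a floor. Thinned capture fractions used exact hypergeometric probabilities. The ratios for 2 or more and 3 or more genes after thinning came from a single random draw per cell. For folds, genes listed in both tables and captured in at least 1% of cells of either line were used. No doublets were called. Computation used Python 3.11.15 with numpy 2.4.6 and scipy 1.17.1. The functions for expected numbers of cells and for thinning were tested on simulated data. Gene positions and transcripts were those of GENCODE M21. Promoter sequences of the members were not used here, and some genes that met the naming rule are not reported here.

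Named genes were the members, their neighbors and paralogs of groups 4 to 10, 15 regulators, 8 cofactors, 7 partner transcripts, cell type markers, the 3 nearest genes by level, and the 5 highest and 5 lowest genes of the scan. The members and lists were chosen with earlier results of these data known. Alternatives were at least 2 reads, restriction to cells kept in the normalized tables, omission of the deepest 5% of cells, thinning, other groups of depth, and another total.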

Additional observations from a re-analysis of the deposited data

How the results depend on the processing

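As each line is 1 library, no replicate could be left out. No paired analysis was possible because each line has 1 library. With at least 2 reads of a gene, the fraction of cells with a *Hoxc* gene was 45.2% in CN4 and 0.176% in KN1. It was 0 in XN1 and XN4, where every captured gene had a single read. In CN4, the fraction was 61.7% over the cells of the normalized table and 62.9% without the 5% deepest cells. Thinning to 3200, 1600, 800, 400, and 200 reads gave 50.9%, 37.5%, 24.7%, 14.8%, and 8.19% in CN4, 0.0526%, 0.0213%, 0.0105%, 0.00527%, and 0.00264% in XN1, and 0.0286%, 0.0125%, 0.00617%, 0.00308%, and 0.00154% in XN4. For KN1, thinning to 1600, 800, 400, and 200 reads gave 0.166%, 0.111%, 0.0668%, and 0.0370%. The thinned values of XN1 and XN4 rest on at most 4 and 3 cells with a *Hoxc* read. *Hoxc8* in CN4 moved from 47.9% to 36.98% with at least 2 reads, 45.5% over the cells of the normalized table, 46.5% without the deepest cells, and 37.1% and 16.8% on thinning to 3200 and 800 reads. The order of the lines CN4 and KN1 was kept under all of these.

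The summed CN4 level of 356 RPM was 454 with the smaller total, 349 as a mean over cells, and 458 over the cells of the normalized table. The ratio of CN4 to KN1 was 128 for *Hoxc8* alone. The ratio for 2 or more genes was 1.32 with at least 2 reads, 1.26 after thinning to 3200 reads, 1.08 over the cells of the normalized table, and 1.147 without *Hoxc5*, the last chosen after seeing the data. For 3 or more genes the same settings gave 2.30, 2.52, 1.76, and 1.66, while no groups of depth gave 1.88 and leaving out the deepest cells 1.67. The median of the 15 pairs, 1.46, was 1.63 without groups of depth and 1.68 with at least 2 reads. *Hoxc4* with *Hoxc8* crossed 1 with 5 groups (1.002) and no groups (1.08), and *Hoxc5* with *Hoxc10* with no groups (1.148) and at least 2 reads (1.16).

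At these depths, a cell without a *Hoxc* read is not shown to lack the transcript. The 5 members without a column in KN1 have no value there. Of 150 values for single genes, pairs, and nearest genes under alternatives, 73 stayed within the interval of the main value.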

Other observations

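The genes below were chosen after their values were seen, and their ratios are given as a description. When the same scan of 8295 genes was run for the cells with *Hoxc4*, the 5 highest ratios were those of *Kif14* (1.37; 1.26 to 1.49), *Cep89* (1.35), *Troap* (1.32), *Cdc25c* (1.32), and *Cdkn3* (1.31). The 5 lowest were those of *Cdc6* (0.775; 0.70 to 0.856), *Ung* (0.776; 0.713 to 0.842), *Tnfrsf12a* (0.808), *Cdt1* (0.811), and *Apln* (0.824). No list was tested. *Cdc6*, *Ung*, and *Cdt1* were also below 1 over their whole intervals with *Hoxc5* (0.896 to 0.909) and *Hoxc6* (0.822 to 0.85), and had 0.956 to 0.967 with *Hoxc8*.

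*En1*, a homeobox gene of the midbrain and hindbrain and of spinal interneurons, was captured in 29.2% of CN4 cells and had ratios on both sides of 1. Its ratio was 0.883 (0.825 to 0.944) with *Hoxc4*, 1.16 (1.09 to 1.22) with *Hoxc5*, 1.148 (1.10 to 1.202) with *Hoxc6*, 1.23 (1.19 to 1.27) with *Hoxc8*, and 1.44 (1.35 to 1.53) with *Hoxc9*. *Hoxa10* had the same order at the ends, with 0.871 (0.73 to 1.03) for *Hoxc4*, 1.52 (1.402 to 1.64) for *Hoxc8*, and 2.19 (1.92 to 2.48) for *Hoxc9*.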
